A study of Homo sapiens with 40 samples.

Results

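The genes of the protein components of the spliceosomal small nuclear ribonucleoproteins (snRNPs) were examined in HEK293A cells, a human embryonic kidney line, and in a PARP1-knockout derivative of it. The members are the protein-coding genes whose symbols begin with SNRP, LSM, SF3A, SF3B or PRPF in the GENCODE 44 annotation, 49 of the 58395 genes in the count tables. Of these, 48 had at least 10 counts summed over the 40 libraries and were tested. SNRPN had 0 counts in all 40 libraries. LSMEM1 and LSMEM2 share only the letters of their symbols with the LSM family, and they are kept here because the rule takes them in.

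RNA-seq was performed on wild-type (WT) and PARP1-knockout (PARP1-KO) cells in 5 conditions each, with 4 libraries per condition and an exposure of about 5 h. The conditions were no treatment, the solvent DMSO at 0.1%, topotecan (Tpc, a poison of DNA topoisomerase 1) at 100 nM for WT and 50 nM for PARP1-KO cells, the TDP1 inhibitor OL9-119 at 5 µM, and Tpc together with OL9-119 at those doses. TDP1 removes stalled topoisomerase 1 from DNA ends. Treated cells were compared with untreated cells, as the study did. Tpc, OL9-119 and the combination were given with 0.1% DMSO, while untreated cells received none. The Tpc dose differed between the lines, so a difference between them in the response to Tpc is also a difference in dose. The PARP1-KO line is 1 clone in which a stretch of PARP1 exons was deleted with CRISPR/Cas9 (1 label field calls it a knockdown), and a difference from WT cannot be told apart from a difference between clones. PARP1 itself was at 30.4 to 46.6 CPM (gene counts scaled to a library total of 1000000) in the 20 PARP1-KO libraries and 737 to 887 CPM in the 20 WT libraries. The 4 libraries of a condition are called biological replicates in the labels and technical replicates in the study's methods. The p-values measure the spread between these libraries, which may be technical.

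The spliceosome is built from the U1, U2, U4, U5 and U6 snRNPs, each an RNA with its proteins. A ring of 7 Sm proteins (SNRPB, SNRPD1, SNRPD2, SNRPD3, SNRPE, SNRPF and SNRPG) encircles the U1, U2, U4 and U5 RNAs, and a ring of LSM proteins holds the U6 RNA. SF3A and SF3B are parts of the U2 snRNP that bind at the branch site, and PRPF proteins build the U4/U6 and U5 particles, activate the assembled spliceosome or belong to the PRPF19 complex. Dividing cells need splicing by these particles, and HEK293A cells are such a line.

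Libraries held 3455043 to 20379777 counts in genes. VIM, KRT8 and KRT18, which HEK293 cells express, were at 189 CPM or more in every library, whereas PAX2 and NEFM fell to 0.0979 and 3.38 CPM in the lowest library. The immune, endothelial and liver markers PTPRC, CD3E, PECAM1, CDH5 and ALB stayed at or below 2.74 CPM, and HBB had at most 2 counts. The libraries differed in the balance between genes with short and long transcripts. This balance, given as the median log2 CPM of genes with canonical transcripts up to 1000 bases minus that of genes over 4000 bases, each relative to the mean of all libraries, was 0.019 to 0.93 in untreated WT cells, -0.042 to 1.18 with DMSO and -0.38 to 0.09 over all PARP1-KO libraries. The highest values belonged to WT DMSO replicate 3 and untreated WT replicate 1. PARP1-KO DMSO replicate 3 stood apart in several members. Results that rest on these libraries are given with and without them.

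In untreated WT cells the level of the 48 members per kilobase of canonical transcript ran from 428 CPM per kb for SNRPD2 to 0 for LSMEM2. SNRPD2, an Sm ring protein, was at 428 ± 118.5 (mean ± SD, n = 4, as for all levels here) CPM per kb. It was followed by SF3B6, the SF3B protein that contacts the branch-point adenosine, at 289 ± 81.9 CPM per kb and by SNRPB at 275 ± 34.9 CPM per kb. The SDs of these neighbours overlapped, and the order among them is not resolved. The next were SNRPF at 222 ± 60.6, SF3B2 at 199 ± 21.9, SNRPC, a U1 protein, at 169 ± 35.2 and PRPF19, the ubiquitin ligase, at 168 ± 14.8 CPM per kb. The largest proteins lay in the middle of the order, with SF3B1, which clamps the branch site, at 53.7 ± 10.1 and PRPF8, the core of the U5 snRNP, at 53.7 ± 14.2 CPM per kb. The lowest members apart from the LSMEM genes were LSM8 at 3.29 ± 0.695, LSM11 at 4.51 ± 1.13, PRPF40B at 5.36 ± 2.37 and PRPF18 at 5.77 ± 4.36 CPM per kb. The 7 measured Sm ring genes spanned the range from 50.6 ± 18.3 CPM per kb for SNRPD1 to the level of SNRPD2. The length is that of a single annotated transcript, 4858 bases for SNRPD1 and 12384 bases for LSM8, so the order depends on it.

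SNRPN, the Sm ring gene of the imprinted Prader-Willi region, is listed at 0 in all libraries. Its exons share 23.9% of their length with SNURF on the same strand. STAR's gene counting leaves out reads that fall on more than 1 gene. Most of its exon length is not shared with SNURF, and why it is listed at 0 was not tested. Processed pseudogenes that resemble a member were most frequent for SNRPG with 20, SNRPC with 18 and SNRPE with 10, and the counts of these genes are uncertain to that extent.

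RefSeq promoter windows were at hand for 40 of the 49 members and are given here because several ring genes and SF3B5 and SF3B6 were called lower in WT cells with OL9-119. The 250 bases before the annotated start (GRCh38.p14) were searched on both strands for 8 short motifs. Of these windows 23 hold an exon of the member itself from another transcript, so the windows shown were chosen among those with no exon of a protein-coding gene. The letters CCGGAAG, a form of the ETS motif, occurred in 16 of 40 member windows (40%) and in 12% of 15345 windows of protein-coding genes. They were in 5 of 13 ring windows and 8 of 17 SF3 and PRPF windows. The letters GGGCGG (Sp1) were in 55.0% of member windows and 56.7% of all, CCAAT in 40% and 34.8%, and TATAAA in 2.50% and 9.23%. The NRF1 letters GCATGCGC were in 5.00% and 3.71%, AAGATGG (YY1) in 5.00% and 3.32%, CACGTG (E-box) in 5.00% and 7.85%, and TGATGNAA (ATF4 with CEBP) in 2.50% and 2.22%. Matches describe letters in the window only. The windows shown are those of SNRPF, SNRPC, SF3B5 and SF3B4, called lower in WT cells with OL9-119 alone or with Tpc, and of PRPF6 and PRPF8, not called in any comparison. Those of SNRPF and PRPF8 overlap an exon of a long non-coding RNA. Each is written 5′ to 3′ on the strand of the gene, with any of the 8 motifs in capitals.
SNRPF (chr12:95858702-95858951, plus strand): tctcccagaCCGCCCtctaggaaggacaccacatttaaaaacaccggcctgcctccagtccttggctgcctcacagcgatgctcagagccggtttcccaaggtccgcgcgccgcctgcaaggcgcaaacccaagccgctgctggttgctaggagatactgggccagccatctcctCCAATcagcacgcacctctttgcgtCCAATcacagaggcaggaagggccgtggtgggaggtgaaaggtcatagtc
SNRPC (chr6:34757255-34757504, plus strand): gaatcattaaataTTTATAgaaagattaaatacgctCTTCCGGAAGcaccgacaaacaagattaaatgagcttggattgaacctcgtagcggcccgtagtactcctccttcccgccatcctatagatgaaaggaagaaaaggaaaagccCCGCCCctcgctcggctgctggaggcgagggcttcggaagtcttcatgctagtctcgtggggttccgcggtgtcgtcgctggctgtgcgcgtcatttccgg
SF3B5 (chr6:144095574-144095823, minus strand): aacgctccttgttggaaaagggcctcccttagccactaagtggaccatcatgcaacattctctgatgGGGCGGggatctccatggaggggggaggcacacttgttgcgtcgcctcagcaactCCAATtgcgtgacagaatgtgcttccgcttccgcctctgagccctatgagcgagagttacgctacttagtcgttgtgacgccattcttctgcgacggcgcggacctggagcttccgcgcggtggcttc
SF3B4 (chr1:149927804-149928053, minus strand): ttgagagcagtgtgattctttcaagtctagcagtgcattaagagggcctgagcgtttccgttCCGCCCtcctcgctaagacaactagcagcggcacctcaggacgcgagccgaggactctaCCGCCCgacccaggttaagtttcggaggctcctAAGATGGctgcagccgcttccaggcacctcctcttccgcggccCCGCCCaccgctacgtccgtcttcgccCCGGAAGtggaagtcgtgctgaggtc
PRPF6 (chr20:63980882-63981131, plus strand): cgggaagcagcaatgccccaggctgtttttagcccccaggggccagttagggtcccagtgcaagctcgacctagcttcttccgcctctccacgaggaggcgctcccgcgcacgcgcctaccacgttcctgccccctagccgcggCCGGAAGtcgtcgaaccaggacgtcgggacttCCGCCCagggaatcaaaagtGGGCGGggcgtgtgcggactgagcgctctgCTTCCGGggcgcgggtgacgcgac
PRPF8 (chr17:1684868-1685117, minus strand): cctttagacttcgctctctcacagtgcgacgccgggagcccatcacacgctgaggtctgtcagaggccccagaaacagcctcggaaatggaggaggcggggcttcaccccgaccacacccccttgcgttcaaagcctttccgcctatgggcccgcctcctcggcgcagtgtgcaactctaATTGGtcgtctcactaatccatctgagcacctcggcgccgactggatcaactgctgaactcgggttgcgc

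The first comparison asked which members differed between the PARP1-KO and WT lines. In DMSO, 11 of the 48 members were higher and 6 were lower in PARP1-KO cells. Among untreated cells 12 were higher and 6 lower. Calls here are adjusted p values below 0.01 in the quasi-likelihood test of edgeR with Benjamini-Hochberg adjustment over the 28922 genes tested. Of all tested genes 12.4% were called in DMSO and 11.7% without treatment. Among the 10523 genes with a mean of at least 10 CPM, which hold 45 of the members, the shares were 29.7% and 28.4%. The members' shares of 35.4% and 37.5% were close to these. The members' median log2 fold change was -0.065 in DMSO and -0.00084 untreated, beside medians of 0.033 and 0.017 for all genes above 1 CPM. In bulk libraries a change in all cells and a change in some of the cells cannot be told apart. By role, the PRPF genes grouped under the U4/U6, U5 and tri-snRNP had a median of 0.38 in DMSO with 4 of 9 higher and 1 lower. This group is drawn broadly and also holds PRPF18, PRPF38A, PRPF38B and PRPF4B. PRPF38B and PRPF4B are among its 4 higher calls. SF3A and SF3B had a median of 0.17 with 3 of 9 higher and 1 lower. The Sm ring had a median of -0.19 with 0 of 7 higher and 1 lower, and the LSM ring one of -0.33 with 0 of 8 higher and 2 lower. The direction of the rings depended on the libraries and the fit. The median of the 15 ring genes in DMSO was -0.054 without 3 libraries that stood apart and 0.14, with 2 higher and 0 lower, with the balance of short and long genes as a covariate. Untreated it was -0.17 and 0.11 in these fits.

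**Figure D1:**
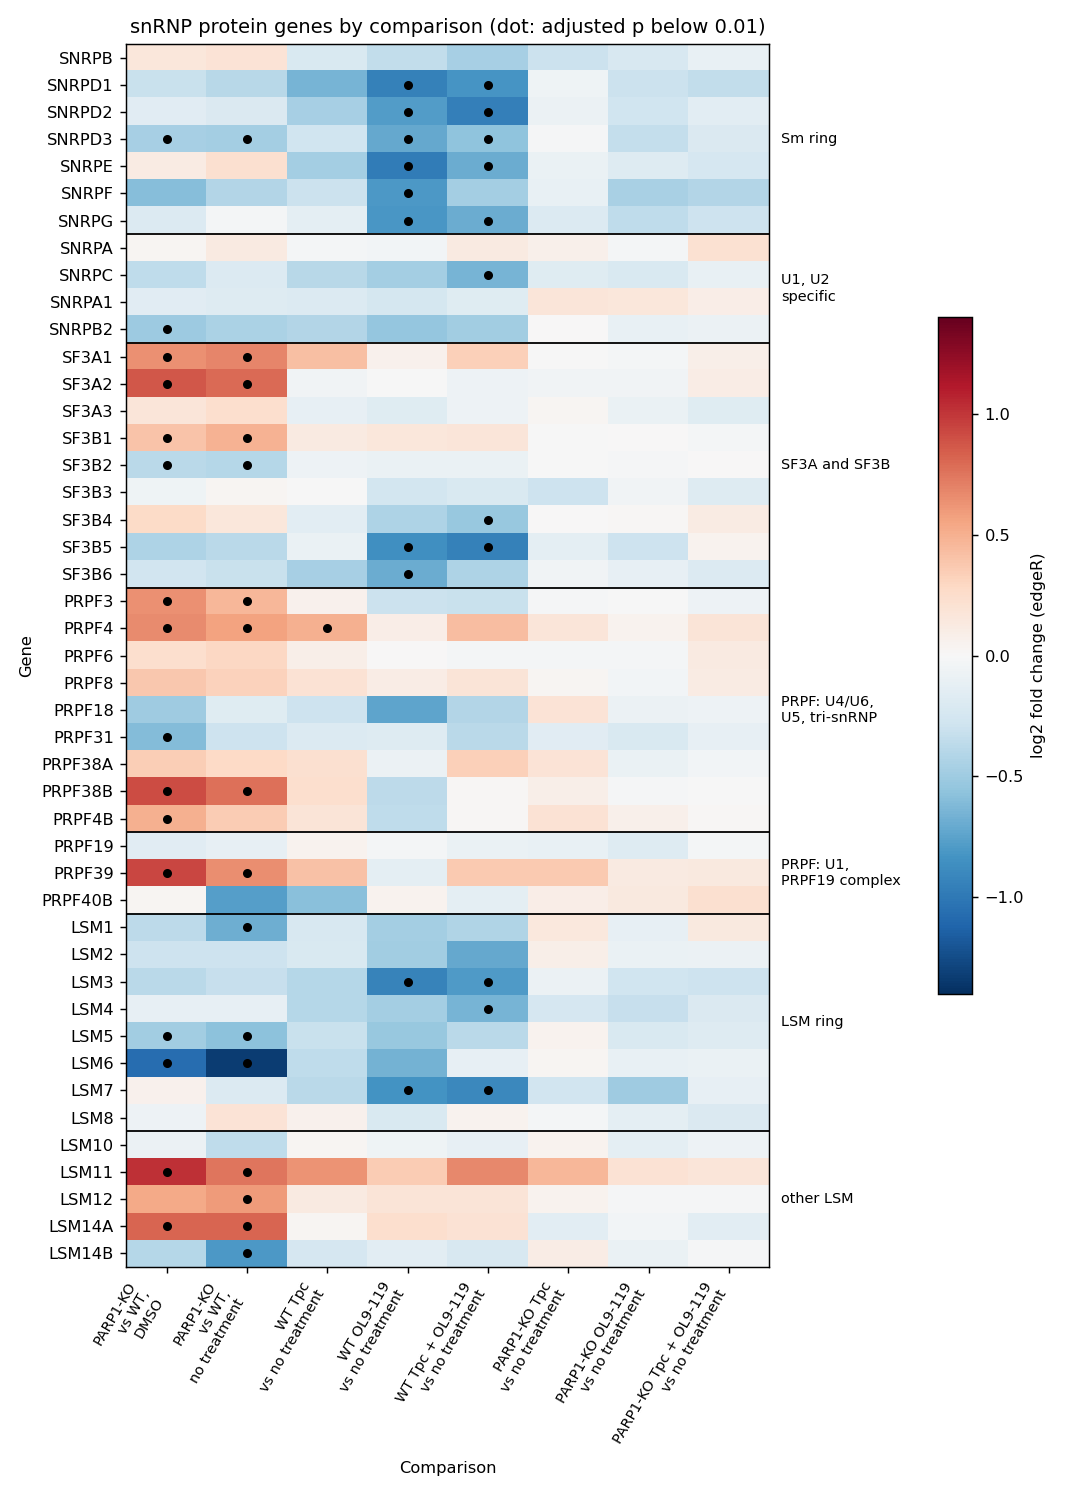
Log2 fold changes of 45 members (rows, grouped by role; the LSMEM genes and 1 other are left out) in 8 comparisons (columns), from blue for lower to red for higher in the first-named group. A dot marks an adjusted p below 0.01 (edgeR). Red cells with dots gather among SF3A, PRPF and LSM14A in the PARP1-KO columns, blue cells with dots gather in the Sm and LSM rings in the WT columns with OL9-119, and the PARP1-KO drug columns hold no dot.

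SF3A1 and SF3A2 are 2 of the 3 subunits of SF3A. SF3A2 was at 139.8, 144, 110.6 and 142 CPM in the PARP1-KO DMSO libraries and 73.6, 78.0, 69.8 and 72.3 CPM in the WT DMSO libraries. All PARP1-KO values lay above all WT values. The log2 fold change was 0.87 ± 0.13 (SE) with an adjusted p of 3.07e-07 (edgeR), and 0.80 in untreated cells. SF3A1 was at 318, 336, 329 and 307 against 197, 256, 158 and 214 CPM in DMSO. The groups did not overlap, at a log2 fold change of 0.64 ± 0.11 and an adjusted p of 7.85e-06 (edgeR). SF3A3, the third subunit, was not called, with 0.17 in DMSO (95% interval -0.062 to 0.40). SF3B1 was higher by 0.40 ± 0.12 in DMSO and 0.49 ± 0.12 untreated, with libraries at 464 to 506 CPM against 269 to 416 CPM in DMSO. Its call in DMSO was lost in 6 of the 8 fits that left out a library (adjusted p up to 0.0998, without WT DMSO replicate 3, edgeR).

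LSM14A, a protein of cytoplasmic P-bodies that represses translation, had the smallest p of all members in both settings. It was at 274, 279, 266 and 275 CPM in PARP1-KO and 151, 165, 131 and 176 CPM in WT cells in DMSO, with no overlap. The log2 fold change was 0.81 ± 0.10 in DMSO and 0.81 ± 0.10 untreated, with adjusted p values of 4.47e-09 and 5.51e-09 (edgeR). Its paralog LSM14B pointed the other way, at 29.9 to 36.5 against 48.8 to 74.5 CPM untreated, and was called lower there (-0.81 ± 0.16). In DMSO LSM14B was at -0.40 and not called (adjusted p = 0.0616, edgeR). LSM11, which with LSM10 replaces a pair of Sm proteins in the U7 snRNP of histone mRNA processing, was at 53.2, 58.3, 84.4 and 54.9 CPM in PARP1-KO and 27.7, 37.9, 14.3 and 43.7 CPM in WT cells in DMSO. The lines did not overlap, and it was higher by 1.03 ± 0.20 in DMSO and 0.75 ± 0.20 untreated. LSM10 was not called, at -0.084 and -0.36. LSM12 was called higher in untreated cells (0.60 ± 0.17) and had 0.53 in DMSO without a call. The untreated calls of LSM11 and LSM12 were each lost in 4 of 8 fits that left out a library, with adjusted p values of 0.0324 without WT replicate 1 and 0.0511 without WT replicate 3 (edgeR).

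PRPF38B, a relative of the activation factor PRPF38A, was at 257, 279, 345 and 277 CPM in PARP1-KO and 132, 141, 187 and 157 CPM in WT cells in DMSO. The groups were separate, with a log2 fold change of 0.91 ± 0.11 and an adjusted p of 5.95e-09 (edgeR). PRPF4 and PRPF3, partners in the U4/U6 snRNP, were at 107.6, 121.6, 133 and 125.7 against 82.9, 72.9, 81.6 and 71.5 CPM and at 104.3, 93.8, 111.1 and 108.2 against 68.6, 70.5, 62.1 and 66.2 CPM. Neither overlapped between the lines, and they were higher by 0.66 ± 0.12 and 0.64 ± 0.12. PRPF31, the third protein of that particle, was lower in DMSO at -0.61 ± 0.14 with groups that overlapped, and it was not called in untreated cells (-0.29). The U1-associated PRPF39 was at 85.8, 93.03, 135 and 88.0 against 63.2, 61.2, 31.2 and 53.7 CPM, higher by 0.94 ± 0.17. The kinase PRPF4B was called higher in DMSO (0.49 ± 0.13) and had 0.35 without a call in untreated cells. Its call was lost in 3 of 8 fits that left out a library, with an adjusted p of 0.0724 without PARP1-KO DMSO replicate 3 (edgeR). The untreated call of PRPF3 was lost in 5 of 8 such fits (adjusted p = 0.0430 without WT replicate 4, edgeR), that of PRPF39 in 2 (0.0194 without PARP1-KO replicate 1) and the DMSO call of PRPF31 in 2 (0.0487 without WT replicate 3). PRPF6 and PRPF8 were not called in either setting, PRPF8 at 0.38 in DMSO (95% interval 0.084 to 0.67).

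Among the rings the lower calls were few. LSM6, a member of both the nuclear and the cytoplasmic LSM ring, was at 17.3, 17.1, 16.6 and 16.6 CPM in untreated PARP1-KO and 43.95, 32.1, 59.4 and 34.8 CPM in untreated WT cells. Every PARP1-KO value was below every WT value, and the log2 fold change was -1.33 ± 0.24 (adjusted p = 1.73e-05, edgeR). In DMSO it was -1.07 ± 0.24, and WT DMSO replicate 2 at 14.1 CPM lay among the PARP1-KO libraries. LSM5 was lower at -0.57 ± 0.14 untreated and -0.48 ± 0.14 in DMSO. LSM1, which is specific to the cytoplasmic decay ring, was called lower untreated (-0.68 ± 0.18) and not in DMSO (-0.37). LSM8, its counterpart in the nuclear ring, was not called (0.19 and -0.074). The call of LSM6 in DMSO was lost without WT replicate 3 (adjusted p = 0.0125, edgeR), that of LSM5 in 4 of 8 fits in DMSO (0.0426 without PARP1-KO replicate 4) and 2 untreated (0.0115 without PARP1-KO replicate 4), and that of LSM1 in 3 untreated (0.0336 without WT replicate 1). SNRPD3 was the Sm ring gene called lower in both settings (-0.46 and -0.48), and its call was lost in 6 of 8 fits that left out a library in each (adjusted p = 0.172 without WT DMSO replicate 3 and 0.0838 without untreated WT replicate 1, edgeR). SNRPB2, a U2 protein, was called lower in DMSO (-0.51), with an adjusted p of 0.117 without WT DMSO replicate 3 (edgeR).

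SF3B2 and PRPF19 lie on chromosome 11, where the 769 genes above 1 CPM showed a median log2 change of -0.50 in DMSO and -0.52 untreated, beside 0.050 and 0.035 on the other chromosomes. SF3B2 was at 500.3, 504, 484 and 489 CPM in PARP1-KO and 698, 634, 718 and 559 CPM in WT cells without treatment. It was lower at -0.40 ± 0.10 untreated and -0.38 ± 0.10 in DMSO. Its call was lost in DMSO without WT replicate 3 (adjusted p = 0.0466) or PARP1-KO replicate 1 (0.0117) and untreated without WT replicate 3 (0.0112, edgeR). PRPF19 was at 343, 374, 371 and 364 against 436, 404, 360.0 and 370.3 CPM without treatment. It was not called in either setting, at -0.16 in DMSO (95% interval -0.37 to 0.045). Both genes lie between 60 and 67 Mb, where the median of 155 genes was -0.68 in DMSO and -0.66 untreated. Of these genes 138 were below 0 in DMSO and 141 untreated. The differences of SF3B2 and PRPF19 were smaller than the medians of the chromosome and of this stretch. The part of chromosome 11 in the result for SF3B2 was not tested.

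**Figure D2:**
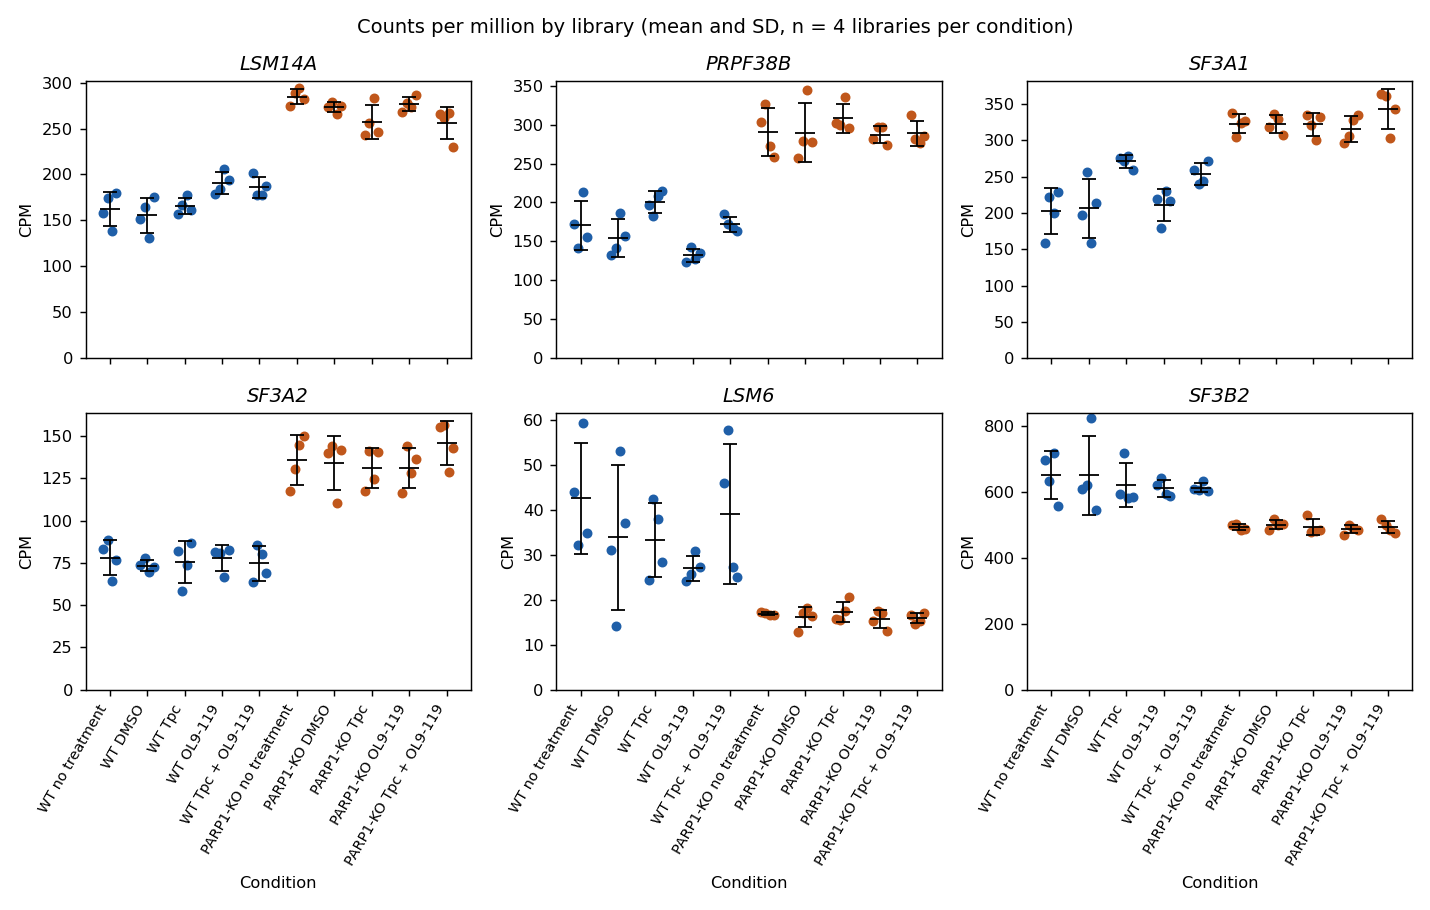
CPM (vertical axis, from 0) of 6 members in each of the 10 conditions (horizontal axis), one point per library, WT in blue and PARP1-KO in orange, with the mean and SD of 4 libraries in black. LSM14A, PRPF38B, SF3A1 and SF3A2 lie higher and LSM6 and SF3B2 mostly lower in the PARP1-KO libraries under each treatment.

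The lower calls varied with the libraries and the fit. Without WT DMSO replicate 3, untreated WT replicate 1 and PARP1-KO DMSO replicate 3, 9 members were called in DMSO, of which 8 were higher and 1 lower. Over all genes 1390 were higher and 1231 lower in DMSO in this fit, beside 1930 and 1662 with all libraries. The untreated comparison then had 12 higher and 4 lower. The 6 lower calls in DMSO also became 1 without WT replicate 3 alone, and 2, 3, 4 and 3 without PARP1-KO replicate 1, 2, 3 or 4. The 1662 lower calls over all genes became 1456, and 1349, 1341, 1256 and 1350, in the same fits. With the short-long balance of each library as a covariate, 14 were higher and 0 lower in DMSO, and 13 higher and 2 lower untreated. Over all genes the covariate gave 1593 higher and 1422 lower in DMSO. The median of all members in DMSO turned from below to above 0 without the 3 libraries (0.083), without WT DMSO replicate 3 alone (0.092), with the offsets for length and GC content (0.030) and with the covariate (0.21). Over all genes up to 1000 bases 24.1% were called lower in DMSO and 3.47% higher, while over 4000 bases these shares were 7.48% and 17.8%. LSM14A, PRPF38B, SF3A1, SF3A2 and PRPF4 kept their calls in DMSO and untreated in every fit that left out a library and in every other setting tried.

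Other spliceosomal genes, from lists that hold no member, gave 16 higher and 6 lower of 80 in DMSO (27.5% called) and 18 higher and 7 lower untreated (31.2% called). These shares were close to the 29.7% and 28.4% of all genes at 10 CPM or more. In DMSO, of 15 genes of spliceosomal helicases and of the U2AF step 5 were higher and 0 lower, among them DDX39B, an RNA helicase of early assembly and export, at 0.88 ± 0.13, and CHERP at 0.64 ± 0.14. Of the 18 genes of the PRPF19 complex and the catalytic steps 6 were higher and 2 lower, with SLU7, a factor of the second step, at 1.10 ± 0.11 and XAB2 at 1.00 ± 0.17, and CWC15 at -0.84 ± 0.14. Of the 19 snRNP assembly genes 2 were higher and 1 lower in DMSO, and 6 higher and 1 lower untreated. The lower one in DMSO was CLNS1A, a chaperone of Sm proteins, at -0.82 ± 0.11, and the higher ones were DDX20 and COIL. Of the 20 other snRNP proteins 2 were higher and 2 lower, with SNRNP48 at 0.81 ± 0.14 and SNRNP25 at -1.25 ± 0.18. Of the 8 cytoplasmic partners of the LSM ring XRN1, the exonuclease, was higher (0.96 ± 0.21) and DDX6 lower (-0.56 ± 0.14). CLNS1A, CWC15 and DDX6 lie on chromosome 11, whose 769 genes above 1 CPM had a median of -0.50 in DMSO. The part of the chromosome in these lower calls was not tested.

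The next comparison concerned Tpc. In WT cells Tpc changed 1 of the 48 members by the test, against 0.857% of all genes and 2.30% of genes at 10 CPM or more. PRPF4 was at 113.1, 118.4, 118.5 and 100.1 CPM with Tpc and 82.9, 87.0, 62.7 and 87.4 CPM without treatment. The groups did not overlap, and the log2 fold change was 0.49 ± 0.12 with an adjusted p of 0.00888 (edgeR). The call was lost in 5 of 8 fits that left out a library, with an adjusted p of 0.0894 without untreated replicate 3 (edgeR). SF3A1 had 0.43 and PRPF39 0.41, without a call. All 7 Sm ring genes had estimates below 0, with a median of -0.30, and none was called. SNRPD1 had the lowest estimate, -0.65 ± 0.19 (adjusted p = 0.0472, edgeR). Genes with canonical transcripts up to 1000 bases had the same median of -0.30 with Tpc. With DMSO alone in WT cells the 7 Sm ring estimates were also below 0 (median -0.098). Among the other spliceosomal genes DDX20, a helicase of the SMN complex that loads Sm rings, was higher by 0.70 ± 0.15, and PATL1, a partner of the cytoplasmic LSM ring, by 0.59 ± 0.14, with 2 of 80 called.

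OL9-119 alone lowered 10 members in WT cells and raised 0, against 1.28% of all genes called in either direction and 2.25% of genes at 10 CPM or more called lower. The 10 comprised 6 of the 7 Sm ring genes, 2 of the 8 LSM ring genes, and SF3B5 and SF3B6. No PRPF gene, no other LSM gene and no U1- or U2-specific gene was called. The median log2 fold change was -0.80 in the Sm ring, -0.50 in the LSM ring, -0.17 in SF3A and SF3B, -0.18 in the PRPF genes of the U4/U6, U5 and tri-snRNP and 0.18 in the other LSM genes, beside 0.013 for all genes above 1 CPM.

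LSM3, an LSM ring protein, had the smallest p. It was at 47.1, 53.0, 45.6 and 39.0 CPM with OL9-119 and 101.3, 79.8, 103.1 and 68.9 CPM without treatment. Every treated library was below every untreated one, and the log2 fold change was -0.94 ± 0.15 with an adjusted p of 1.51e-05 (edgeR). LSM7 of the same ring was at 33.9, 24.6, 25.8 and 25.2 against 50.1, 45.4, 59.0 and 41.8 CPM, lower at -0.84 ± 0.19. The other 6 ring members LSM1, LSM2, LSM4, LSM5, LSM6 and LSM8 had estimates from -0.66 for LSM6 to -0.22 for LSM8 and were not called.

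In the Sm ring, SNRPE was at 59.6, 74.7, 68.3 and 59.5 CPM with OL9-119 and 152, 92.9, 177 and 93.05 CPM without. The groups were separate, at a log2 fold change of -0.97 ± 0.18 (adjusted p = 0.000416, edgeR). SNRPD2 was at 116.4, 157, 116.8 and 121.6 against 304, 181, 226 and 170.0 CPM, lower at -0.79 ± 0.15 (adjusted p = 0.000386, edgeR). SNRPD1 was at 108.6, 183, 108.8 and 110.1 against 328, 178, 317 and 160.5 CPM. Here replicate 2 of the treated cells lay among the untreated libraries, and the log2 fold change was -0.95 ± 0.19. SNRPD3, SNRPF and SNRPG did not overlap between the groups and were lower at -0.72 ± 0.14, -0.80 ± 0.18 and -0.81 ± 0.16. SNRPB, the ring's largest protein, was the exception. It was at 246, 258, 212 and 223 against 327, 309, 313 and 242 CPM, with -0.34 ± 0.12 and an adjusted p of 0.133 (edgeR).

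SF3B5, the smallest SF3B subunit, whose promoter window holds 1 CCAAT and 1 Sp1 match, was at 49.5, 54.2, 38.4 and 39.7 CPM with OL9-119 and 113.2, 74.4, 71.9 and 71.1 CPM without. The libraries did not overlap, and the log2 fold change was -0.86 ± 0.16 (adjusted p = 0.000329, edgeR). SF3B6 was lower at -0.70 ± 0.16 with groups that overlapped. The large subunits of the same particle were not called, with SF3B1 at 401, 309, 414 and 421 against 274, 369.9, 318 and 426 CPM and 0.16 (95% interval -0.072 to 0.38). SF3B2 and SF3B3 were at -0.093 and -0.26. PRPF8, the U5 core, was at 0.11 (95% interval -0.19 to 0.40). Of the 80 other spliceosomal genes 2 were lower and 1 higher. The lower ones were PPIH, a cyclophilin of the U4/U6 snRNP, at -0.71 ± 0.15 and CWC15 at -0.61 ± 0.14, and the higher one was the helicase DDX42 at 0.63 ± 0.10.

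**Figure D3:**
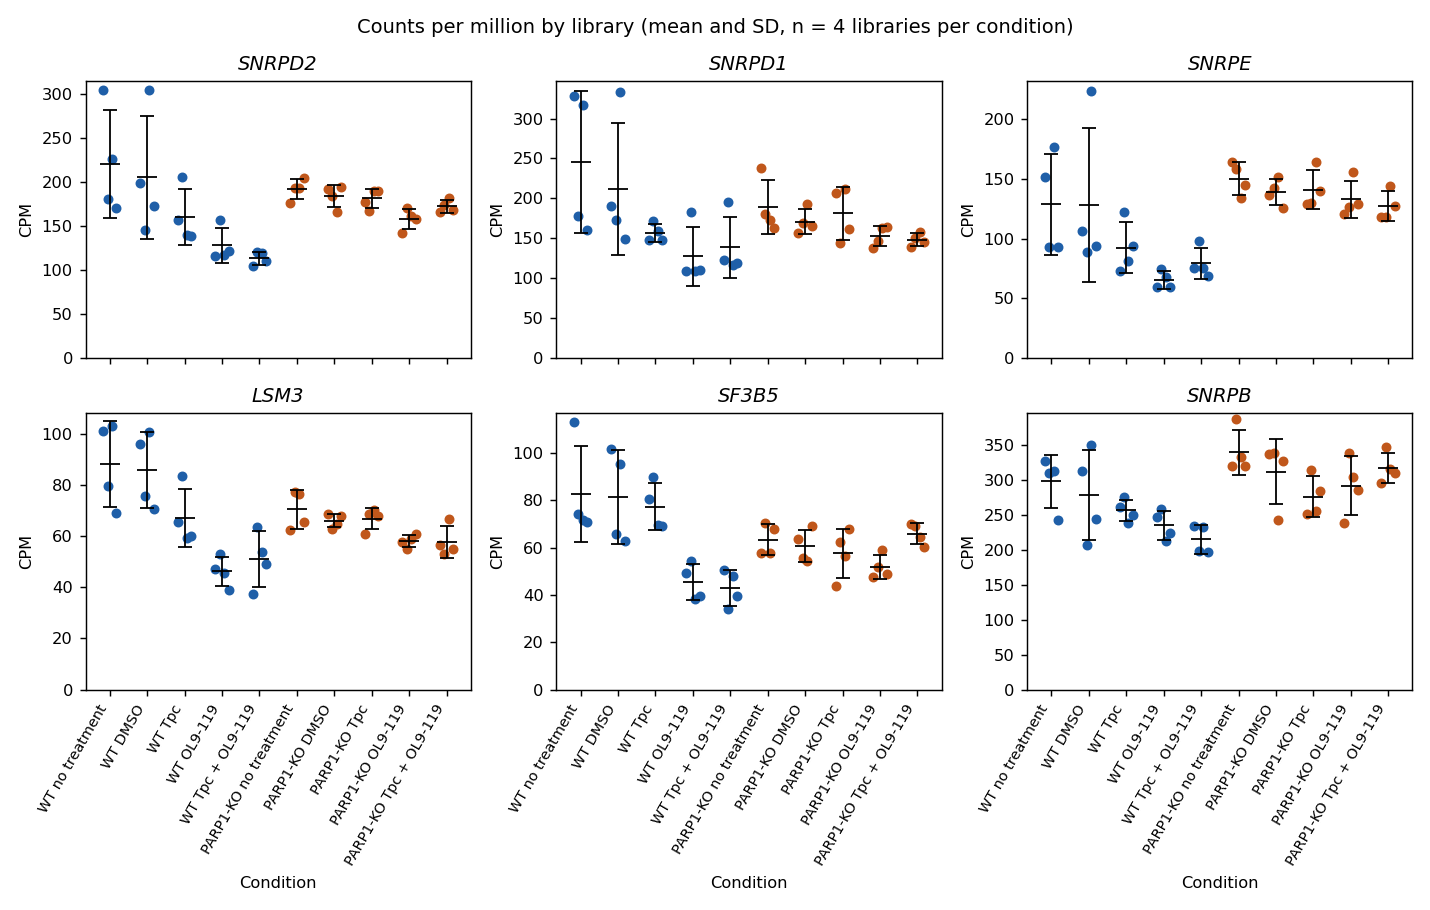
CPM (vertical axis, from 0) of 6 members in each of the 10 conditions (horizontal axis), one point per library, WT in blue and PARP1-KO in orange, with the mean and SD of 4 libraries in black. In WT cells SNRPD2, SNRPE, LSM3 and SF3B5 are lower with OL9-119 than without treatment in every library, the untreated and DMSO groups spread most, and the PARP1-KO groups lie close together.

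With Tpc and OL9-119 together, 11 members were lower and 0 higher in WT cells, against 4.07% of all genes called and 5.20% of genes at 10 CPM or more called lower. Among genes with canonical transcripts up to 1000 bases 24.1% were called lower, at a median log2 change of -0.51. Of the 10 members of that length 5 were called lower. The 11 comprised 5 Sm ring genes, 3 LSM ring genes, SF3B4, SF3B5 and SNRPC. SNRPD2 was at 104.4, 119.9, 119.2 and 110.7 CPM, below every untreated library, at a log2 fold change of -0.96 ± 0.15 and an adjusted p of 5.98e-06 (edgeR). SF3B5 was at 50.5, 33.9, 47.9 and 39.5 CPM, lower at -0.94 ± 0.16 (adjusted p = 4.35e-05, edgeR). LSM3, LSM7 and LSM4 were lower at -0.80 ± 0.15, -0.90 ± 0.19 and -0.65 ± 0.13, each without overlap. LSM3 was at 37.2, 63.7, 53.7 and 49.1 CPM and LSM7 at 29.4, 18.5, 30.3 and 26.9 CPM. LSM4 was at 107.7, 137, 129 and 132 against 245, 179.8, 201 and 166 CPM. SNRPC, the U1 protein that steadies pairing with the 5′ splice site, was at 92.7, 103.5, 83.3 and 67.3 against 169, 141, 135 and 99.8 CPM. Its groups overlapped by 1 treated library, and it was lower at -0.65 ± 0.15. SNRPG was at 45.3, 44.7, 55.7 and 55.2 against 83.2, 78.6, 94.5 and 68.4 CPM and SNRPD1 at 122.4, 196, 116.8 and 119.4 CPM, lower at -0.70 ± 0.16 and -0.82 ± 0.19. The groups were separate for SNRPG and overlapped for SNRPD1. SNRPD3 was lower at -0.57 ± 0.14. SF3B4, which contacts RNA near the branch site, and SNRPE were called near the threshold, at -0.53 ± 0.14 and -0.69 ± 0.18 with adjusted p values of 0.0087 and 0.00966 (edgeR). SNRPF and SNRPB were not called, at -0.48 and -0.47. The PRPF genes again had 0 calls of 13. Of the 80 other spliceosomal genes 4 were higher and 2 lower, among them SNRNP48 of the U11/U12 snRNP at 0.91 ± 0.15 and PPIH at -0.90 ± 0.15. Both WT comparisons with OL9-119 share the untreated libraries.

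Set against Tpc alone, the addition of OL9-119 lowered SF3B5, while 0.18% of all genes were called. SF3B5 was at 50.5, 33.9, 47.9 and 39.5 CPM with both compounds and 80.6, 90.1, 69.8 and 69.0 CPM with Tpc, separate groups with a log2 fold change of -0.85 ± 0.16 (adjusted p = 0.00237, edgeR). The call was lost in 4 of 8 fits that left out a library, with an adjusted p of 0.0386 without replicate 2 of the combination (edgeR). SNRPD2 was at -0.50 ± 0.15 in this comparison (adjusted p = 0.174, edgeR), and the 7 Sm ring genes all had estimates below 0. The median of these 7 genes was -0.25, beside -0.22 for genes with canonical transcripts up to 1000 bases.

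The level of the ring genes moved with the short-long balance of the libraries. The summed CPM of the 7 Sm and 8 LSM ring genes was 1543 to 2433 in untreated WT libraries, 1447 to 2553 with DMSO, 1462 to 1814 with Tpc, 1169 to 1464 with OL9-119 and 1176 to 1484 with both compounds. With OL9-119 every sum was below every untreated one, while replicate 2 at 1464 overlapped with the lowest DMSO library. The summed CPM of the SF3 and PRPF genes was 4202 to 4308 in untreated WT libraries and 3951 to 4037 with OL9-119. Genes of up to 1000 bases showed a median log2 change of -0.43 with OL9-119 in WT cells and 11.9% of them were called lower, beside 0.13 and 0.529% for genes over 4000 bases. Of the 10 members in the shortest class, 6 were called lower. Among the other 4 called members SNRPE has a canonical transcript of 1560 bases. LSM3 and SNRPD3 have transcripts over 2500 bases and SNRPD1 one over 4000 bases. In these classes 1.95%, 1.07% and 0.529% of genes were called lower. Each length is that of a single annotated transcript, and which transcript these cells express was not tested.

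Ring sums of single WT libraries of similar balance are given next, and such single libraries cannot decide the part of the balance. Replicate 2 with OL9-119 had a balance of 0.35 and a ring sum of 1464 CPM, while untreated replicate 2 with a balance of 0.32 had 1738 CPM. Replicate 2 of the combination had a balance of 0.038 and 1484 CPM, beside untreated replicate 4 with 0.019 and 1543 CPM. DMSO replicate 2, with a balance of -0.020, had 1447 CPM, and DMSO replicate 4, with -0.042, had 1551 CPM. Tpc replicate 2 had a balance of 0.37 and 1814 CPM. Tpc replicates 1, 3 and 4 had balances of 0.059, -0.026 and 0.028 with 1472, 1462 and 1464 CPM. The part of the balance in the lower calls was not tested beyond the fits that follow. With offsets for length and GC content in each library, OL9-119 lowered 13 members, the 10 among them, and the combination lowered 9, of which 7 were among the 11, with 0 higher in either. With the balance as a covariate, which differs between the groups and is made from short genes such as the members, OL9-119 lowered 3 members, LSM3, PRPF4B and SF3B3. The combination then lowered SNRPD2 and SF3B3 and raised PRPF4 and SNRPA. The ring genes' median was -0.36 for OL9-119 and -0.16 for the combination in that fit, and -0.64 and -0.50 with the offsets. LSM3 with OL9-119 and SNRPD2 with the combination were called in every setting.

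**Figure D4:**
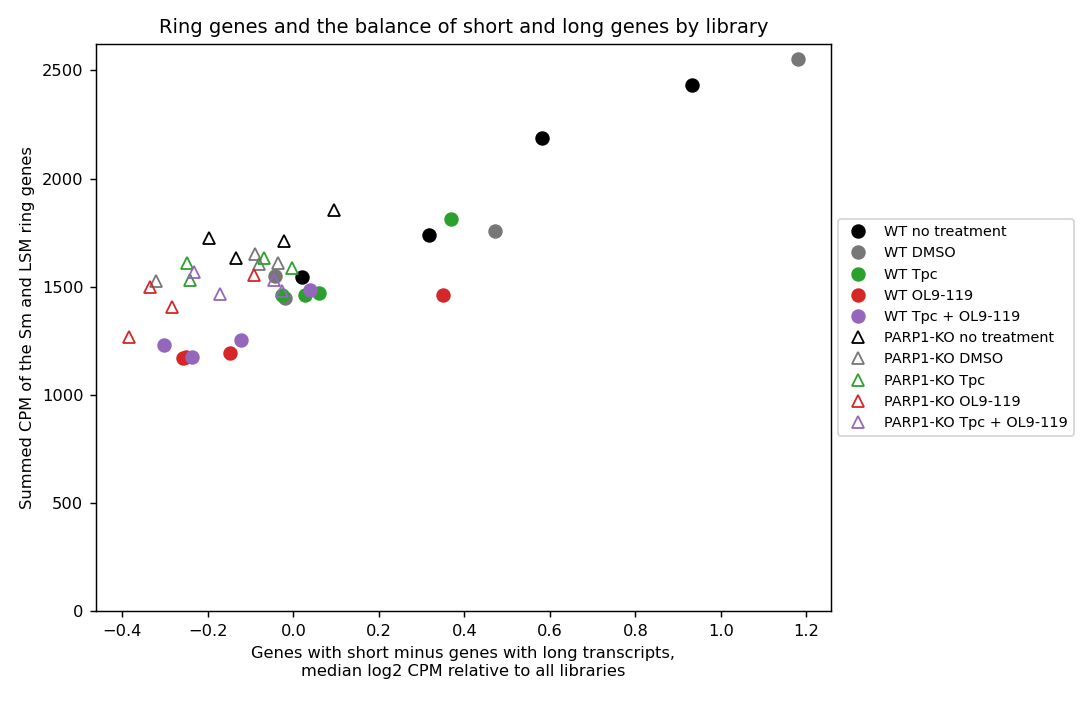
Summed CPM of the 15 Sm and LSM ring genes (vertical axis, from 0) against the short-long balance (horizontal axis, log2), one symbol per library, filled circles for WT and open triangles for PARP1-KO. Untreated and DMSO-treated WT libraries reach 2433 and 2553 CPM at the highest balance, and WT libraries with OL9-119 lie at 1169 to 1464 CPM.

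Without untreated WT replicate 1 the calls fell to 4 for OL9-119 and 6 for the combination, and without untreated WT replicate 4 they rose to 14 and 15. Without replicate 1 the adjusted p of SNRPD2 with OL9-119 was 0.0179 and that of SF3B5 0.0157, and without untreated replicate 3 those of SNRPE and SNRPG were 0.0101 and 0.0105 (edgeR). SF3B6 and LSM7 each lost the OL9-119 call in 5 of 8 fits that left out a library (adjusted p = 0.0802 and 0.0406 without untreated replicate 3), SNRPF in 4 (0.0729 without untreated replicate 1) and SNRPD1 in 2 (0.0164 without untreated replicate 1). LSM3 and SNRPD3 lost it in none of the 8. For the combination SNRPD2, SF3B5, LSM3 and LSM4 lost the call in none of the 8 fits that left out a library. SF3B4 lost it in 6 (0.0552 without replicate 1 of the combination), SNRPE in 5 (0.0861 without untreated replicate 3) and SNRPD1 in 5 (0.0254 without untreated replicate 1). SNRPG and SNRPD3 lost it in 3 each (0.0181 without replicate 1 of the combination and 0.0417 without untreated replicate 1), SNRPC in 2 (0.0226 without untreated replicate 1) and LSM7 in 1 (0.0107 without replicate 2 of the combination). With the DMSO libraries as the comparator in place of the untreated ones, OL9-119 lowered 8 members and the combination lowered 6 and raised 1. SNRPD1 and LSM7 were then not called for OL9-119, at adjusted p values of 0.0168 and 0.149 (edgeR). For the combination 5 of the 11 calls were shared with this comparator. SNRPE, LSM4, SNRPD3, SF3B4, SNRPD1 and LSM7 were then not called, at adjusted p values of 0.0122, 0.0181, 0.0223, 0.0227, 0.0329 and 0.0541 (edgeR). DMSO itself changed 0 members in WT cells by edgeR and 0 by DESeq2, and 0% of all genes. At an unadjusted p below 0.05 (edgeR) were 3 members (LSMEM1, LSMEM2 and LSM14B) and 3116 of the 28922 genes. LSM14B was at -0.37 (adjusted p = 0.374, edgeR). The DMSO libraries spread widely, with SNRPD2 at 198, 145, 304 and 173 CPM.

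In PARP1-KO cells no drug changed a member by the test. Tpc gave 0 calls among members by edgeR and by DESeq2, with 4 members at an unadjusted p below 0.05, beside 0.0138% of all genes called. OL9-119 gave 0 calls by both tools with 5 members below 0.05 and 0.00346% of all genes called. The combination gave 0 by both tools, with 2 members below 0.05 and 0% of all genes called. The addition of OL9-119 to Tpc gave 0 by both tools with 1 member below 0.05, PRPF38A at -0.23, and 0% of genes called. SNRPF and SF3A3 followed at -0.31 and -0.20. DMSO gave 0 by both tools, with 0 members below 0.05 and 0% of genes called. The smallest p values with DMSO were those of LSM11 (0.34), LSM4 (-0.18) and SF3B3 (-0.15). Of all 28922 genes, 1713 had an unadjusted p below 0.05 (edgeR) with Tpc, 931 with OL9-119 and 1241 with the combination. There were 1186 for the addition of OL9-119 to Tpc and 538 with DMSO. Estimates in the Sm ring were below 0 for 7 of 7 genes with OL9-119 (median -0.30) and 7 of 7 with the combination (median -0.24). They were also below 0 for 7 of 7 with DMSO (median -0.12) and 7 of 7 with Tpc (median -0.092). These comparisons share the untreated PARP1-KO libraries. Genes with canonical transcripts up to 1000 bases had medians of -0.16 with OL9-119, -0.069 with the combination, -0.049 with DMSO and -0.084 with Tpc. SNRPD2 was at 142, 170.1, 162 and 157 CPM with OL9-119 and 176, 193, 193 and 204 CPM without treatment, -0.28 ± 0.15 with a 95% interval of -0.57 to 0.0088. LSM7 had the smallest p with OL9-119, at 22.0, 41.8, 26.3 and 31.8 against 31.2, 45.5, 48.8 and 46.1 CPM and -0.49 ± 0.19 (unadjusted p = 0.0112, adjusted p = 1, edgeR). The smallest p values with Tpc were those of SF3B3 (-0.29 ± 0.12), SNRPB (-0.30 ± 0.12) and LSM11 (0.46 ± 0.19). SNRPB was at 251, 313, 255 and 284 CPM with Tpc and 319, 386, 332 and 319 CPM without treatment in these cells. The smallest with the combination were those of SNRPF (-0.41 ± 0.18), LSM3 (-0.29 ± 0.14) and SNRPD1 (-0.35 ± 0.19).

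Whether the lines differed in their response was tested by an interaction term. For Tpc 0 members and 0.1% of all genes were called by edgeR, and 0 members by DESeq2. At an unadjusted p below 0.05 (edgeR) were 4 members and 2142 of the 28922 genes. The smallest p values were those of SF3A1 (-0.43 ± 0.16), SNRPD1 (0.59 ± 0.26) and SNRPB2 (0.42 ± 0.21). For OL9-119 0 members and 0.0657% of genes were called by edgeR (12 members and 1968 of all genes below 0.05, 0 members called in DESeq2). For the combination 0 members and 0.27% of genes were called by edgeR (13 members and 3420 of all genes below 0.05), and 1 member by DESeq2. That member was SF3B5, with an adjusted p of 0.00399 in DESeq2. By edgeR the response of SF3B5 to the combination was higher in PARP1-KO than in WT cells by 1.00 ± 0.23 (95% interval 0.55 to 1.44, adjusted p = 0.0157), and that of SNRPD2 by 0.81 ± 0.21 (adjusted p = 0.0559, edgeR). SF3B4 was at 0.65 ± 0.19. SF3B5 and SNRPD2 have canonical transcripts of 690 and 515 bases. Over all genes up to 1000 bases the median difference between the lines was 0.45 for the combination and 0.25 for OL9-119. For OL9-119 alone the largest differences by p were LSM3 at 0.65 ± 0.20 (95% interval 0.25 to 1.06, adjusted p = 0.521, edgeR) and SNRPE at 0.80 ± 0.26 (adjusted p = 0.538, edgeR), followed by SF3B6 at 0.59 ± 0.22. The OL9-119 and combination terms share the untreated libraries of both lines.

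**Figure D5:**
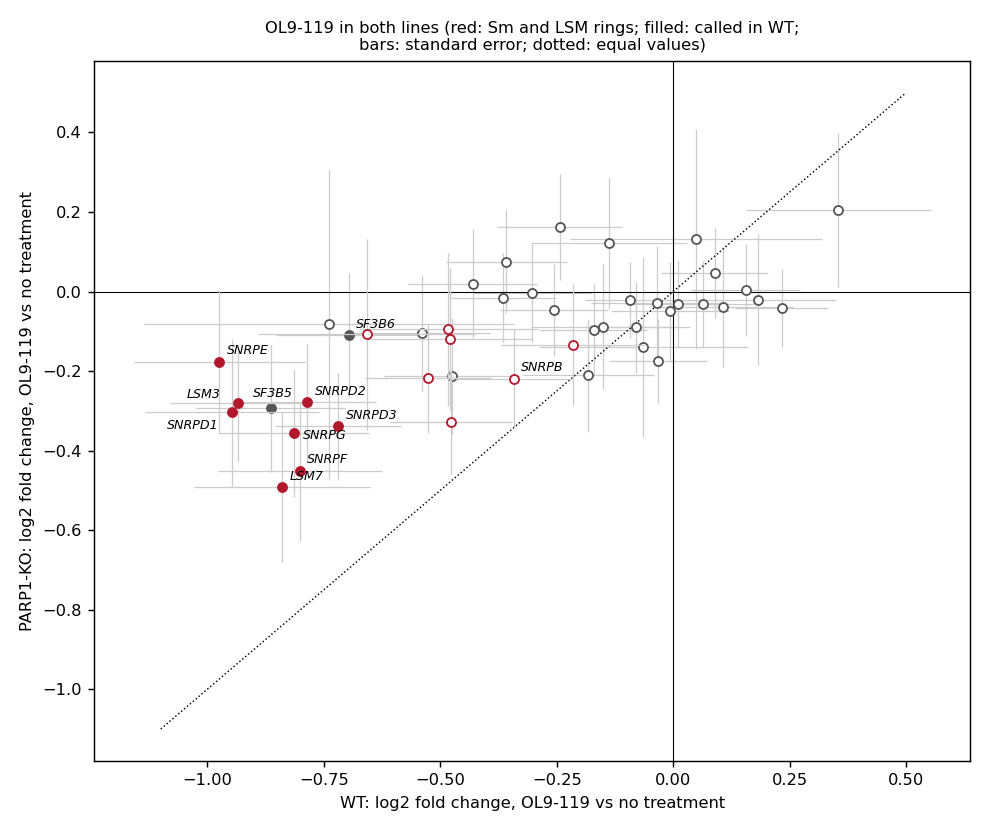
Log2 fold change with OL9-119 against no treatment in PARP1-KO cells (vertical axis) and WT cells (horizontal axis) for 45 members, with standard errors. The 8 ring genes called in WT cells lie between -0.72 and -0.97 there and between -0.18 and -0.49 in PARP1-KO cells. They were chosen by their values in WT cells, and the interaction test called 0 of the 48 members.

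Some members had no call in any comparison or rest on few counts, and some overlap other genes. PRPF18, PRPF40B and LSM10 were measured at 9.64 ± 7.28, 17.0 ± 7.54 and 21.0 ± 3.09 CPM in untreated WT cells, and PRPF40B overlaps FMNL3 on the opposite strand over 27.99% of its exons. PRPF18 was at -0.74 ± 0.40 with OL9-119 in WT cells without a call. LSM2, a ring gene, was at -0.72 ± 0.20 with the combination in WT cells without a call, and PRPF38A, which activates the spliceosome, at 0.34. PRPF39 overlaps FKBP3 over 13.3% of its exons and PRPF31 overlaps TFPT over 9.28%, both on the opposite strand, and which strand's counts were deposited is not given in the sources used here. SNRPA and SNRPA1, of U1 and U2, had estimates from -0.24 to 0.13 in the 3 WT drug comparisons against no treatment and in the 2 comparisons of the lines. LSMEM1 was at 0.507 ± 0.721 CPM in untreated WT and 4.01 ± 0.942 CPM in untreated PARP1-KO cells and was called higher there, but at 3.53 ± 1.501 and 3.41 ± 0.825 CPM in DMSO it was not. LSMEM2 had 65 counts in all 40 libraries.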

How the data were processed

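Poly(A) RNA was sequenced from directional libraries as paired ends of 100 bases, 4 libraries for each of 10 conditions. Per the labels and the methods, the authors checked reads with FastQC 0.11.9, aligned them to hg38 with STAR 2.7.8 and used Picard 2.26.6. The deposited values are the authors' raw read counts per gene, which carry no normalization. Which strand's counts were deposited is not given in the sources used here. Libraries held 3455043 to 20379777 counts, and a member at few counts is measured less precisely.

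A gene entered the tests if its counts over the 40 libraries came to 10 or more. Counts were scaled with TMM and fitted over all 40 libraries and 10 groups with the quasi-likelihood test of edgeR 4.0.16 (R 4.3.3), with Benjamini-Hochberg adjustment over all 28922 genes and a threshold of 0.01. CPM values use TMM library sizes. Intervals are the estimate ± 1.96 SE. The edgeR and DESeq2 fits, the replicate block and the length and GC offsets were tried on simulated counts. These counts held no short-long shift and no library that stands apart, so the trial does not bear on those. The other fits were not simulated. No 2 libraries agreed within sampling noise (chi-square per gene 2.30 or more between replicates). The alternatives were DESeq2 1.42.0, other normalization and filters, other covariates, the DMSO comparator, another threshold and each library left out. Leaving out 3 libraries together and the covariate for short and long genes were chosen after seeing the data.

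The members and gene lists were chosen with earlier results of these data known. The genes named are those called, up to 4 per role by fold change where over 12 were called, or the 3 with the smallest p where none was; values in every library follow the smallest p of the PARP1-KO comparison in DMSO and of the combination in WT cells, with SNRPB, SF3B1 and the members on chromosome 11 added, and other genes were named beyond this after their values were seen. Promoter windows and transcript lengths came from RefSeq (GRCh38.p14) and GENCODE 44. The values of 1 member, which is in the counts and medians, are not reported here.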

Additional observations from a re-analysis of the deposited data

Results flagged for a closer look

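Each member of which the text gives values in every library was checked in each of the 10 conditions for a library that lies far from the other 3, by the ratio of the gap to the range against Dixon's critical value for 4 libraries. Of 220 groups 21 had such a library, and chance alone gives about 1 in 20 groups.

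PARP1-KO DMSO replicate 3 accounts for 7 of the 21. It had SF3A2 at 110.6 CPM with the others at 139.8 to 144 CPM and PRPF39 at 135 CPM with the others at 85.8 to 93.03 CPM. It also had LSM11 at 84.4 CPM with the others at 53.2 to 58.3 CPM and LSM7 at 24.5 CPM with the others at 45.3 to 47.0 CPM. It also had SNRPB at 242 CPM with the others at 327 to 339 CPM and SF3B1 at 506 CPM with the others at 464 to 467 CPM. It also had PRPF19 at 294 CPM with the others at 353 to 360.5 CPM. SF3B1, PRPF39 and LSM11 were above the other libraries there, and LSM7, SF3A2, SNRPB and PRPF19 below them.

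WT OL9-119 replicate 2, the OL9-119 library with the highest balance of short against long genes, had LSM11 at 26.4 CPM with the others at 41.1 to 42.3 CPM and SNRPD2 at 157 CPM with the others at 116.4 to 121.6 CPM. It also had SNRPD1 at 183 CPM with the others at 108.6 to 110.1 CPM and SNRPC at 127.4 CPM with the others at 86.5 to 90.5 CPM.

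The other 10 fell in other libraries. SNRPE was at 223.7 CPM in replicate 3 of WT cells with DMSO, the library with the highest balance, with the others at 89.0 to 106.5 CPM. LSM14A was at 229.8 CPM in replicate 4 of PARP1-KO cells with Tpc + OL9-119, with the others at 262 to 267 CPM. SF3A2 was at 66.4 CPM in replicate 3 of WT cells with OL9-119, with the others at 80.6 to 82.6 CPM. SF3B5 was at 113.2 CPM in replicate 1 of WT cells without treatment, with the others at 71.1 to 74.4 CPM. LSM4 was at 179 CPM in replicate 2 of PARP1-KO cells with OL9-119, with the others at 132 to 138 CPM. LSM7 was at 33.9 CPM in replicate 1 of WT cells with OL9-119, with the others at 24.6 to 25.8 CPM. SNRPD1 was at 196 CPM in replicate 2 of WT cells with Tpc + OL9-119, with the others at 116.8 to 122.4 CPM. SF3B1 was at 507 CPM in replicate 2 of PARP1-KO cells without treatment, with the others at 478 to 482 CPM. SF3B2 was at 719.6 CPM in replicate 2 of WT cells with Tpc, with the others at 583 to 596 CPM. SF3B2 was at 531 CPM in replicate 1 of PARP1-KO cells with Tpc, with the others at 479 to 484 CPM.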

How the results depend on the processing

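Counts are members called of 48, at an adjusted p below 0.01 in edgeR unless stated. PARP1-KO against WT in DMSO (17 called) gave 9 with only the libraries compared in the fit, 9 without the 3 libraries that stood apart, and 10 to 19 with 1 library left out, the lowest without WT DMSO replicate 3. Over all genes the 3592 calls of this comparison became 2088, 2621 and, without WT DMSO replicate 3, 2973. Untreated, the 18 became 11 to 18 with 1 library left out, the lowest without WT replicate 1. Tpc in WT cells (1 called) gave 0 with only the libraries compared, the replicate block or the library prefix of the labels, 2 with DESeq2 or offsets for length and GC content, 3 at a threshold of 0.05 and 0 to 3 with 1 library left out. OL9-119 in WT cells (10) gave 3 with the short-long covariate and 4 to 14 with 1 library left out. The combination (11) gave 7 against DMSO, 4 with the covariate, 17 at 0.05 and 6 to 15 with 1 library left out. Against Tpc (1), it gave 2 with only the libraries compared, 2 without the 3 libraries and 0 to 1 with 1 library left out. OL9-119 in PARP1-KO cells (0) gave 1 with only the libraries compared, SNRPF. The interaction for the combination (0) gave 1 with DESeq2, 2 without a filter on low counts, 1 against DMSO, 1 at 0.05 and 0 to 1 with 1 library left out. The cause of these changes was not tested. The median of the 15 ring genes between the lines turned from below 0 to 0.14 in DMSO and 0.11 untreated with the covariate, and that of all members in DMSO to 0.030 with the offsets, 0.083 without the 3 libraries and 0.21 with the covariate. The replicate numbers do not pair the libraries, since correlations of same-numbered deviations ran from -0.16 to 0.33 and no comparison had all above 0.1. With the replicate block 18 members were called in DMSO, 18 untreated, 0 with Tpc, 10 with OL9-119, 13 with the combination and 1 for the combination against Tpc.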
